A study of Homo sapiens with 4 samples.

Results

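Regions of open chromatin that lie in exons of noncoding RNAs were examined in MCF10A, an established human mammary epithelial cell line that does not form tumours. They were taken as every region whose deposited annotation begins with "non-coding", which gave 680 of 58127 regions, or 1.17% of the table. The 680 regions fell into 638 different transcripts. Of these regions 452 belonged to the common set, 205 to the set named as specific to the control and 23 to the set named as specific to the knockdown.

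Accessibility was measured by ATAC-seq, in which a transposase inserts into open DNA and the insertions are sequenced. One group of libraries carried a control short hairpin (shNC), and the other a hairpin that targets SNHG8d (shG8d), an RNA of the snoRNA host gene SNHG8, with 2 libraries lettered A and B in each. Both groups are the same cell line, and the labels name neither separate cultures nor the time after hairpin delivery, so the p-values reflect how far these libraries differ within a group, and that spread can be purely technical. The title of the study concerns SNHG8d, histone H1 and chromatin condensation, and the question here was which noncoding exons were more or less open in one group.

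The group labels in the column names do not follow the same libraries through the table. Dividing each value by the amount that 1 read is worth gave whole reads, and that amount identifies a library. The libraries with 0.842 (A) and 0.807 (B) normalized counts per read held 8124488 and 8111839 reads in regions and are called the deeper pair. Those with 1.21 (A) and 1.17 (B) held 4457248 and 4344212 reads and are called the shallower pair. These names refer to reads in regions, and total sequencing depth is not known from these values. Each difference between the pairs is also one between more and fewer reads in regions. The hairpin and the number of reads therefore cannot be told apart. Single libraries are called deeper A, deeper B, shallower A and shallower B. The deeper pair is labelled shG8d in the common set and shNC in both specific sets. Differences are therefore given as deeper minus shallower pair, the sets are kept apart, and which pair received the knockdown hairpin is not decided.

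A noncoding RNA gene can make a long RNA that works as RNA, a precursor from which microRNAs or small nucleolar RNAs are cut, or a transcript that overlaps a protein-coding gene on the opposite strand. Processed and duplicated pseudogenes can also be transcribed, and many protein-coding genes have additional spliced transcripts with no complete reading frame, which RefSeq lists as noncoding. Open chromatin in an exon is most often found just downstream of a start site, where the promoter's nucleosome-free region extends into the first exon, or at an enhancer that happens to overlap a later exon.

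The annotated transcripts divided almost evenly between genes of RNA and genes of protein. Through its transcript identifier, 667 of the 680 regions matched a RefSeq gene (GRCh38.p14, used for names). Of these, 311 regions (45.7%) lay in long noncoding RNA genes, 292 (42.9%) in noncoding transcripts of protein-coding genes and 64 (9.41%) in transcribed pseudogenes. By symbol, the RNA genes included 104 regions in antisense or overlapping RNAs and 97 in LINC RNAs. There were 4 regions each in microRNA host genes and snoRNA host genes. No region was annotated to a microRNA gene itself or to an exon of SNHG8. First exons of transcripts with several exons held 328 regions, last exons 202, internal exons 100 and transcripts of 1 exon 50.

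The 250 bases before the RefSeq start site are printed for genes with large called differences in each set. They show the DNA next to which first-exon regions opened or closed. Not every chromosome was eligible for printing, so the largest difference of a set may be missing. The choice was by size of difference among regions in exon 1 within 500 bp of their own gene's start that had a sequence at hand. RefSeq sequences on GRCh38.p14 were at hand for 206 of the 268 such regions (76.9%), which is too few for a comparison of base composition between called and other members. Capitals mark matches, on either strand, to the GC box GGGCGG, the ETS core CCGGAAG, the AP-1 site TGANTCA and the CCAAT box CCAAT. These letters occur in the same window of 42.3%, 8.82%, 6.60% and 33.0% of 27305 RefSeq genes, in that order. The GC box is the site of SP and KLF factors. The first pair was higher in the deeper pair of libraries in the common set.
B3GAT3, chr11:62621987-62622236, minus strand: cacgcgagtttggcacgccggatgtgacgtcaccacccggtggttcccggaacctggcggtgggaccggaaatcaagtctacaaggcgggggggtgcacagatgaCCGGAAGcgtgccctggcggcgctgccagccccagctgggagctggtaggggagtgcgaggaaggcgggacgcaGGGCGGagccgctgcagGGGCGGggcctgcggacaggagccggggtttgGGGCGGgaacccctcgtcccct
ATP2B1-AS1, chr12:89708705-89708954, plus strand: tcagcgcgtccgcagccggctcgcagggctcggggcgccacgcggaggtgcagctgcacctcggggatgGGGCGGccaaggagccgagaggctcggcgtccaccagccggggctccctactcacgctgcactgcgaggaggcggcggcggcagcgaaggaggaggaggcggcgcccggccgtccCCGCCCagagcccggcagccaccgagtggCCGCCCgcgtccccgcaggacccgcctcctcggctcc
The next pair was lower in the common set.
HDAC8, chrX:72572844-72573093, minus strand: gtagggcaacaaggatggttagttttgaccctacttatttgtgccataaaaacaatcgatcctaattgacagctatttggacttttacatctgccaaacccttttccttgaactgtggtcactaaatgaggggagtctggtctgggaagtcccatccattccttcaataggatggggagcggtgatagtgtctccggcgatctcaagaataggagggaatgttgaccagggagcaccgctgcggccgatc
LOC107984035, chr9:41358612-41358861, plus strand: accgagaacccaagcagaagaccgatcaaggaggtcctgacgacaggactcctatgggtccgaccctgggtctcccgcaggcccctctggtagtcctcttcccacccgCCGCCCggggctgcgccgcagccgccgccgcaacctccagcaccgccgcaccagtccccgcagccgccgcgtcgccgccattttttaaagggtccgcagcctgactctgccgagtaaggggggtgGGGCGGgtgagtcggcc
The next pair was higher among the shNC-specific regions.
ATP9B, chr18:79069144-79069393, plus strand: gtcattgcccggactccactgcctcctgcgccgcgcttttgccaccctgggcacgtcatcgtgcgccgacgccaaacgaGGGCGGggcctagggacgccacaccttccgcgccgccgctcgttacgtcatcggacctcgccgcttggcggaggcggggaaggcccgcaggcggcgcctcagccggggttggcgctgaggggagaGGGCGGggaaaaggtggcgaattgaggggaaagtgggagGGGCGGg
FAM169A, chr5:74866388-74866637, minus strand: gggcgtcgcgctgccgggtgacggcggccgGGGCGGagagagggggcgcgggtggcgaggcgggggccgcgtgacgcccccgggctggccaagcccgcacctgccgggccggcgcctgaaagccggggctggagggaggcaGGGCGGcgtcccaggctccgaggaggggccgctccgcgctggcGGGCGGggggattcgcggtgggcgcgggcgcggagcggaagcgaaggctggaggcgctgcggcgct
The last pair was lower among the shG8d-specific regions.
LINC01278, chrX:63561096-63561345, minus strand: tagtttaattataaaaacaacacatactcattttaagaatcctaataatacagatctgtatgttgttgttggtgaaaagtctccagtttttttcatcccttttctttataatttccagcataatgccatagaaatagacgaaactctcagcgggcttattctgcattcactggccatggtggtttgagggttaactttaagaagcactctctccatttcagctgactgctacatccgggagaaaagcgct
PSPC1, chr13:19782946-19783195, minus strand: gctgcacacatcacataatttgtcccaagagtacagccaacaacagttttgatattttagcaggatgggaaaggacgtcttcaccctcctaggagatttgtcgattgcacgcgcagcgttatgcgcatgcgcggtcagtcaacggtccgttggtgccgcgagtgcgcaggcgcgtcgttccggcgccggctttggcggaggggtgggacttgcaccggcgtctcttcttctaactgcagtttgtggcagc

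The 4 windows of regions that were higher held 3 GC boxes each, with a GC content of 71.2% at B3GAT3, 78.4% at ATP2B1-AS1, 71.6% at ATP9B and 82.4% at FAM169A. B3GAT3 had 1 ETS core in addition. Of the 4 windows of regions that were lower, LOC107984035 held 2 GC boxes at 69.6% GC. HDAC8 (48.0% GC), LINC01278 (37.2%) and PSPC1 (56.8%) held none of the 4 motifs. The windows were chosen for the difference of their regions and describe these genes only. The deposited distances put the regions 142 to 350 bp downstream of the nearest deposited start of the same gene. Whether that start is the RefSeq start that each window precedes was not checked. Region starts and ends are not given, so how far a region reaches into its window is not known.

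Over all sets, 151 of the 680 regions were called different between the pairs by limma's moderated test across the whole table (adjusted p under 0.05), against 23.6% of all regions. Of the calls 75 were gains and 76 were losses in the deeper pair, against 11.1% and 12.4% of all regions. At least 2-fold differences made up 59 of the calls, 29 higher and 30 lower, and were not counted over all regions. These totals pool sets that differ in direction. The lowest mean over the 4 libraries was 21.9 normalized counts, the median 73.7 and the highest 515.8, and all 680 passed the filter on low values.

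In the common set, where the deeper pair is labelled shG8d, 44 of 452 regions were called higher (10.7% of all common regions) and 60 lower (15.0% of all common regions), and the median log2 difference was -0.09, where that of all common regions was -0.12. Among shNC-specific regions, where the deeper pair is labelled shNC, 31 of 205 were higher (13.2% of all shNC-specific regions) and 1 lower (0.979%), with a median of 0.37 against 0.24. Among shG8d-specific regions 15 of 23 were lower (70.0%) and 0 higher (0.0363%), with a median of -1.07 against -1.20. The members' shares, 9.73% higher and 13.3% lower in common, 15.1% higher in shNC-specific and 65.2% lower in shG8d-specific regions, lay near those backgrounds. These backgrounds are not matched in distance to a start site (medians 278.5 against 17611 bp in common, 2611 against 17777 bp in shNC-specific regions). Within 200 bp, 6 of 40 shNC-specific members were higher, against 30.9% of all such regions there, with median distances of 137 and 60 bp. From there to 500 bp it was 6 of 24 against 24.6%, and to 1000 bp 2 of 18 against 13.1%. To 10000 bp it was 8 of 73 against 13.4%, and beyond that 9 of 50 against 9.41%. How the authors chose the specific sets is not given, and the choice may rest on the same libraries.

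These counts depended on single libraries and on the scaling. Without deeper A, 12 common regions were higher and 15 lower, 10 shNC-specific regions were higher and 0 lower, and 6 shG8d-specific regions were lower. Leaving out deeper B gave 19 and 29, 8 and 0, and 9. Leaving out shallower A gave 85 and 79, 50 and 3, and 17. When libraries were scaled to equal totals, which moved the median of all regions by -0.35, 14 common regions were higher and 175 lower, and 11 shNC-specific regions were higher and 12 lower. A fit of the shNC-specific set by itself called 11 of its members higher and 0 lower. The share of all regions called under each of these alternatives is not given. These counts therefore show how the calls moved and not how members stand against all regions.

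The authors' deposited table gives its own unadjusted p-value per region. Adjusted over all 58127 regions, that p from the authors' deposited table was under 0.05 at 58 of the 680 noncoding-exon regions, against 9.79% of all regions. These were 45 of 452 common members, against 10.6% of all common regions, 6 of 205 shNC-specific members, against 4.95%, and 7 of 23 shG8d-specific members, against 1048 of all 2755. The members' share was below that of all regions in the table and in each set. All 58 were also among the 151 called by limma, with 0 of opposite sign.

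**Figure D1:**
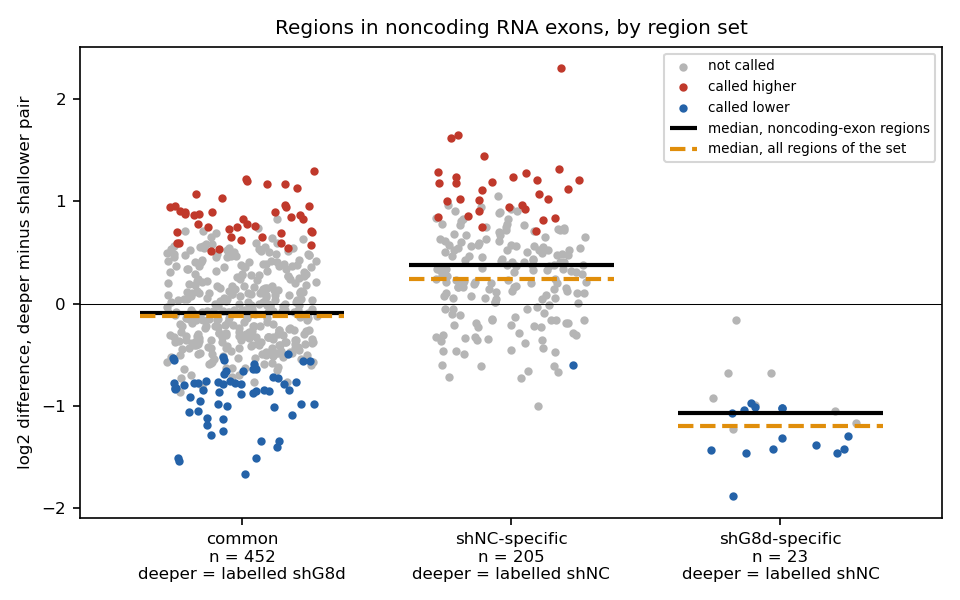
Log2 difference (deeper minus shallower pair, y axis) of each of the 680 noncoding-exon regions by region set (x axis), coloured by the limma call, with the median of the members (black) and of all regions of the set (dashed). The shG8d-specific members all lie below 0, where the median of all regions of that set is -1.20. The common members spread around a median of -0.09.

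Long noncoding RNA genes of the common set held calls in both directions. Of 197 such regions 17 were higher and 28 lower (median log2 difference -0.18). Antisense and overlapping RNAs had 5 of 67 higher and 10 lower, and LINC RNAs 3 of 57 higher and 6 lower. Without deeper B the antisense RNAs had 3 higher and 7 lower, but the LINC RNAs 3 higher and 1 lower. With equal library totals they had 3 and 28, and 3 and 20. Set against the 10.7% and 15.0% of all common regions in the main fit, neither class stood far from the background. That background is not matched in distance to a start site, and no test compares them. Equal totals moved the median of all regions by -0.35, and the shares of all common regions in the alternatives are not given.

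Losses in the deeper pair included antisense RNA exons. SPEN-AS1, antisense to the gene of the transcriptional repressor SPEN, had 74.1 (A) and 51.6 (B) normalized counts in the deeper libraries against 155.8 and 160.5 in the shallower ones, in exon 2 of 2, 11961 bp upstream of the SPEN start. The difference was -1.34 (SE 0.225, limma adjusted p = 0.000530). A second region in the same SPEN-AS1 exon, shNC-specific and 12859 bp upstream, had 63.1 and 88.0 against 100.3 and 51.6, with overlapping values (0.05, adjusted p = 0.921).

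FLJ32255, a noncoding RNA gene on chromosome 5, had 28.6 and 38.7 against 83.4 and 111.3 normalized counts in its last exon (log2 difference -1.50, SE 0.277, limma adjusted p = 0.00111). LOC107984035, whose upstream sequence is printed above, had 92.6 and 88.8 against 212.6 and 233.2 in exon 1 of 3, 247 bp from the start (-1.29, SE 0.189, limma adjusted p = 0.000174). Both calls held under every alternative run. The pairs did not overlap in either gene, as at all 151 called members. LOC107984035 lies on chromosome 9, where long stretches near the centromere exist in near-identical copies, so reads there may be split or shared between copies.

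Gains in the deeper pair were found at other antisense and divergent RNAs. CBR3-AS1, antisense to the carbonyl reductase gene CBR3 on chromosome 21, had 165.8 and 165.4 normalized counts against 76.1 and 73.8 in exon 3 of 3. The replicates nearly coincided, and the log2 difference was 1.13 (SE 0.202, limma adjusted p = 0.000852). TCF12-DT runs divergently from TCF12, which encodes an E-protein transcription factor. Its last exon, 30793 bp upstream of the TCF12 start, had 132.1 and 169.5 against 77.3 and 56.2 (1.17, SE 0.229, limma adjusted p = 0.00168). LINC01508 on chromosome 9 had 150.6 and 128.3 against 65.2 and 57.4 in its last exon, 132034 bp from its start (1.17, SE 0.220, limma adjusted p = 0.00126). ATP2B1-AS1, antisense to a plasma membrane calcium pump gene, had 158.2 and 159.8 against 84.6 and 77.3 (0.97, SE 0.201, limma adjusted p = 0.00258).

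**Figure D2:**
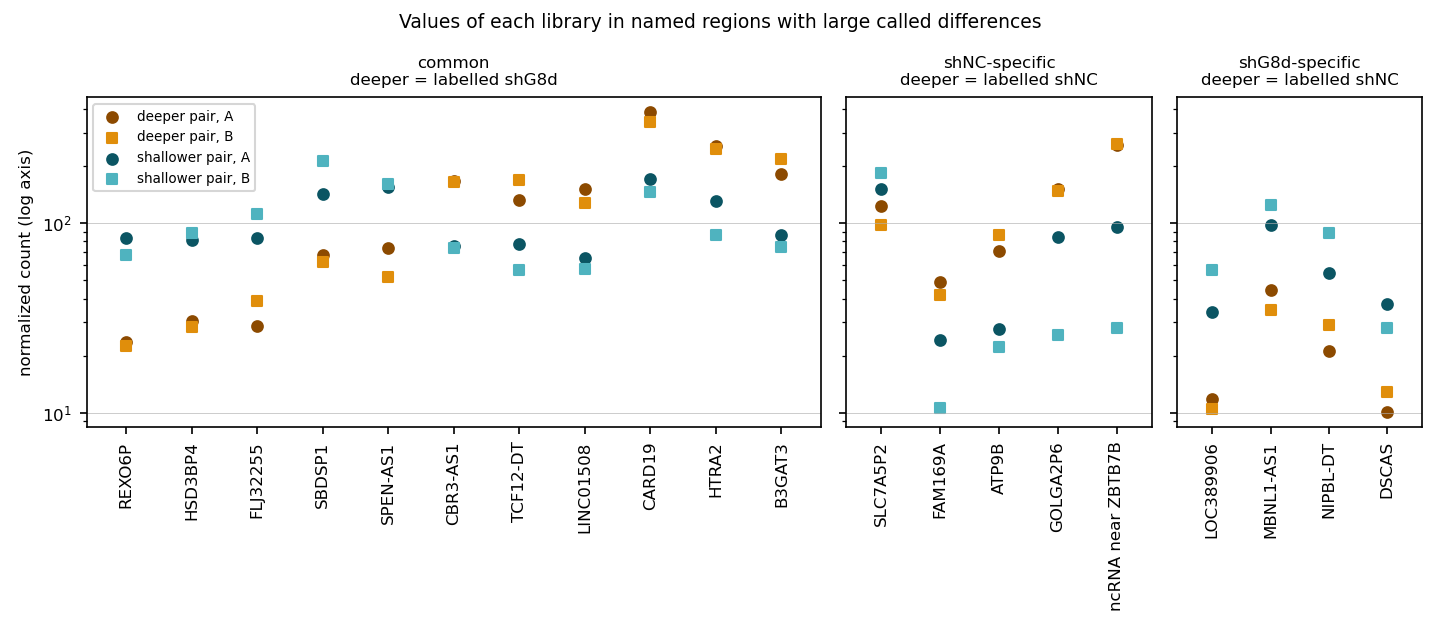
Normalized count (y axis, log scale) in each of the 4 libraries for the regions of largest called difference that the text names (x axis), by region set. In every region shown the 2 deeper libraries lie on one side of the 2 shallower ones, as at all 151 called members. The shallower A and B values are far apart at GOLGA2P6 and at the noncoding RNA near ZBTB7B.

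Noncoding transcripts of protein-coding genes were called in both directions in the common set. In the common set 25 of 208 such regions were higher and 23 lower (median log2 difference -0.01), with 5 higher and 75 lower at equal library totals, and 16 of 73 shNC-specific ones were higher and 0 lower (0.47). In the main fit 10.7% of all common regions were higher and 15.0% lower, and 13.2% of all shNC-specific regions were higher. Equal library totals moved the median of all regions by -0.35, and the shares of all regions in that setting are not given. The median distance of these transcripts' regions from a start site was 186.5 bp in the common set, against 921 bp for long noncoding RNA genes.

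B3GAT3, which encodes a glucuronyltransferase that completes the linker of glycosaminoglycan chains, had the largest gain of the common members. It had 182.6 and 217.9 normalized counts in the deeper libraries against 87.0 and 74.98 in the shallower ones, 142 bp from its start on chromosome 11. The log2 difference was 1.29 (SE 0.201, limma adjusted p = 0.000285). HTRA2, a mitochondrial serine protease gene on chromosome 2, has the start of the neighbouring gene AUP1 as the nearest one to its region, 155 bp away. The region had 254.2 and 245.3 against 130.5 and 86.7 (1.22, SE 0.204, limma adjusted p = 0.000496). CARD19, which encodes a CARD-domain protein, had 383.8 and 341.4 against 170.3 and 145.3 in an exon 15664 bp from its start (1.20, SE 0.173, limma adjusted p = 0.000151).

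HDAC8, whose upstream sequence is printed above, encodes a class I histone deacetylase that also acts on cohesin. Its region had 30.3 and 16.1 normalized counts in the deeper and 68.9 and 48.0 in the shallower pair (common, log2 difference -1.34, SE 0.356, limma adjusted p = 0.0116). Without deeper B the call was lost (-0.90, adjusted p = 0.144).

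Pseudogenes had 2 of 38 common regions higher and 8 lower (median log2 difference -0.07), and 0 higher and 16 lower with equal library totals. In the main fit 10.7% of all common regions were higher and 15.0% lower. Their shares with equal library totals are not given, and no test compares pseudogenes with them. REXO6P on chromosome 9 had the largest loss in the common set, with 23.6 and 22.6 normalized counts in the deeper and 83.4 and 68.0 in the shallower pair in exon 13 of 17 (-1.66, SE 0.302, limma adjusted p = 0.000972). HSD3BP4, a copy of the steroid dehydrogenase genes of chromosome 1, had 30.3 and 28.2 against 80.9 and 89.0 (-1.51, SE 0.277, limma adjusted p = 0.00110). SBDSP1, the pseudogene partner of the ribosome maturation gene SBDS on chromosome 7, had 68.2 and 62.1 against 142.6 and 212.1, 398 bp from its start (-1.40, SE 0.225, limma adjusted p = 0.000362). All 3 were called under every alternative run. The pairs did not overlap, as at all 151 called members. Pseudogenes share sequence with their parents, and how reads that fit both places were treated is not given, so these values are uncertain as to place.

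In the common set, called gains outnumbered called losses only within 200 bp of a start site, and there the direction depended on the scaling. No member lies within 100 bp of a start. Of all members 342 of 680 (50.3%) were within 500 bp and 126 (18.5%) beyond 10000 bp. Within 200 bp 24 of 174 common members were higher and 13 lower (median log2 difference 0.03). Of all 6073 common regions within 200 bp 30.7% were called, 1217 (20.0%) higher and 648 (10.7%) lower. The median distance there was 143 bp for the members and 79 bp for all common regions. The shares within 200 bp are therefore not matched in distance. From over 1000 to 10000 bp 4 of 86 were higher and 15 lower (median -0.29), while of all 5049 common regions there 25.1% were called, 507 higher and 758 lower. From over 500 to 1000 bp 0 of 26 were higher and 6 lower, against 10.8% and 18.4% of all common regions there. From over 200 to 500 bp 7 of 94 were higher and 13 lower, against 12.1% and 15.3%. Beyond 10000 bp 9 of 72 were higher and 13 lower, against 7.93% and 16.1%. All regions of the common set also had more gains than losses within 200 bp and more losses than gains farther out. Equal library totals moved the median of all regions by -0.35, and the share of all common regions within 200 bp in that setting is not given. In that setting the members within 200 bp had 5 higher and 52 lower, so the direction turned. Without deeper A they had 5 and 3, without deeper B 7 and 7, and without shallower A 40 and 21.

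**Figure D3:**
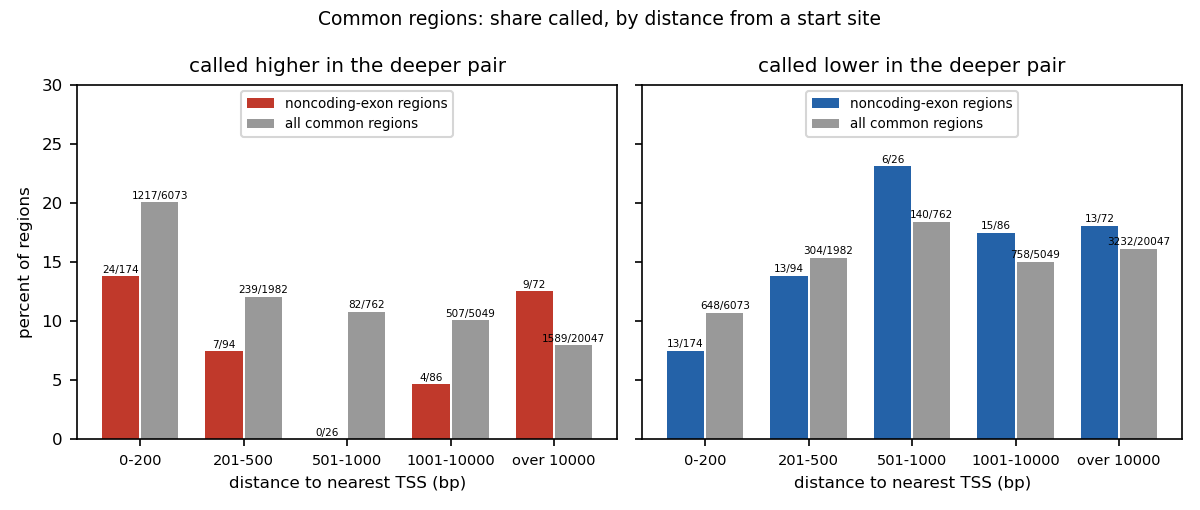
Percent of common regions called higher (left) or lower (right) in the deeper pair (y axis) by distance to the nearest start site in bp (x axis), for noncoding-exon regions (coloured) and all common regions (grey), with counts over the bars. In both sets of regions the share called higher is largest within 200 bp, at 24 of 174 members with the authors' scaling. With equal library totals it was 5 of 174 members, and the share of all common regions in that setting is not given. Within 200 bp the median distance is 143 bp for members and 79 bp for all common regions, so these bars are not matched in distance.

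**Figure D4:**
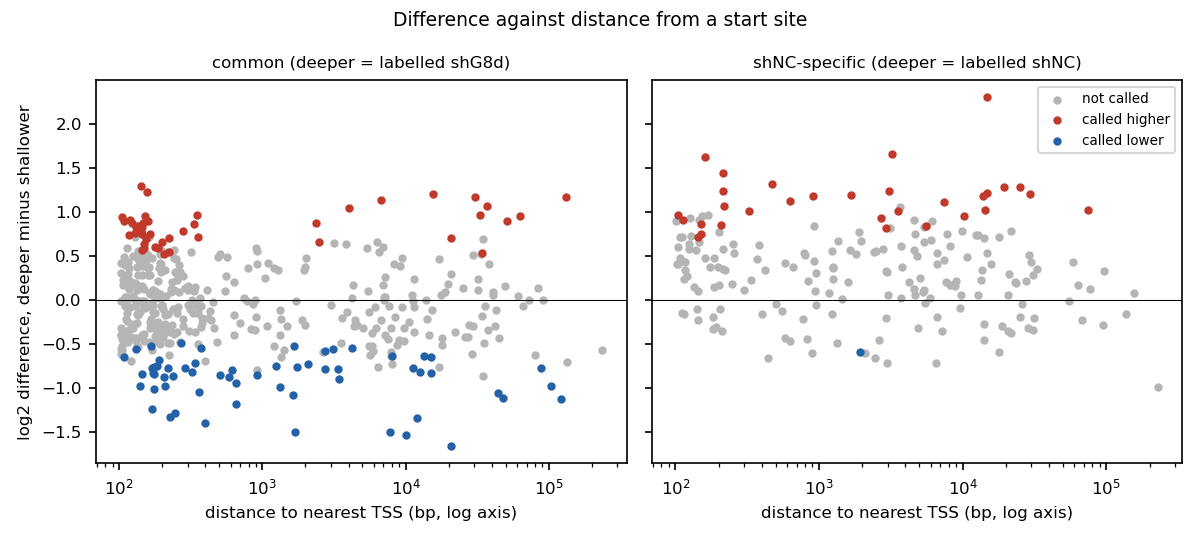
Log2 difference (deeper minus shallower pair, y axis) against distance to the nearest start site in bp (x axis, log scale) for common and shNC-specific members, coloured by call. Both sets start at just over 100 bp, and the 1 shNC-specific member called lower lies at 1924 bp.

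Exon position was examined in the same way. In the common set 28 of 252 first exons were higher and 29 lower (median log2 difference -0.06), 4 of 50 internal exons were higher and 9 lower (-0.29), and 9 of 116 last exons were higher and 17 lower (-0.16). Transcripts of 1 exon had 3 of 34 higher and 5 lower. In the shNC-specific set 10 of 65 first, 5 of 45 internal and 13 of 81 last exons were higher. These counts stand beside 10.7% higher and 15.0% lower among all common regions and 13.2% higher among all shNC-specific regions. Most classes lay near those shares, which are not matched in distance to a start site. With equal library totals 4 common first exons were higher and 91 lower, and the share of all common regions in that setting is not given. No test compares these classes, and exon class and distance cannot be told apart here.

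Hosts of small RNAs were few. Of 4 regions in microRNA host genes 2 were called, and of 4 in snoRNA host genes 0 were called by limma, with 0 at an unadjusted p under 0.05 and 0 by voom. With 25.7% of all common and 14.2% of all shNC-specific regions called, counts out of 4 say little about either class. The called hosts are named after MIR137 and MIR4290, and the mature microRNAs of these are printed from RefSeq with the seed, bases 2 to 8, in capitals. The 3 seeds printed differ.
hsa-miR-137-3p: uUAUUGCUuaagaauacgcguag
hsa-miR-137-5p: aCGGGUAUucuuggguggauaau
hsa-miR-4290: uGCCCUCCuuucuucccuc
MIR137HG, the host of miR-137, a microRNA best known from neurons, had 19.4 and 21.8 normalized counts in the deeper and 45.9 and 45.7 in the shallower pair in its last exon on chromosome 1. The log2 difference was -1.12 (SE 0.340, limma adjusted p = 0.0228), but the adjusted p was 0.151 without deeper A and 0.0857 without deeper B. MIR4290HG on chromosome 9 had 247.4 and 188.8 against 146.2 and 128.9 in exon 3 of 4, 2482 bp upstream of MIR4290 (0.65, SE 0.191, limma adjusted p = 0.0193). That call was lost without deeper A (0.46, adjusted p = 0.344) and with equal library totals (0.30, adjusted p = 0.246). MIR3150BHG had 36.2 and 57.3 against 70.1 and 71.5 in a common region (-0.62, adjusted p = 0.113) and 26.9 and 34.7 against 23.0 and 39.8 in a shNC-specific one (0.01, adjusted p = 0.983). Its common region was called lower with equal library totals (-0.97, adjusted p = 0.0134).

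SnoRNA host genes keep small nucleolar RNAs in their introns and are the family to which SNHG8 belongs. SNHG22 had the highest level of the 4, with 260.9 and 259.0 normalized counts in the deeper and 277.9 and 267.1 in the shallower pair in its last exon (log2 difference -0.07, SE 0.164, limma adjusted p = 0.801). SNHG30 had 118.7 and 133.2 against 142.6 and 124.2 (-0.08, adjusted p = 0.799), and SNHG4 had 119.5 and 113.8 against 136.5 and 100.8 (-0.01, adjusted p = 0.982). SNHG28, shNC-specific, had 51.3 and 64.6 against 55.6 and 30.5 (0.47, SE 0.314, limma adjusted p = 0.290). It was called without shallower A (0.90, adjusted p = 0.0260). The pairs overlapped at SNHG30, SNHG4 and SNHG28.

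Of 55 well-studied long noncoding RNAs on a list, 4 had a noncoding-exon region, in 5 regions, and 0 were called by limma. With 23.6% of all regions in the table called, 0 of 5 says little about these RNAs. NORAD, which binds and sequesters PUMILIO proteins, had 69.9 and 76.7 normalized counts in the deeper and 100.3 and 79.7 in the shallower pair (log2 difference -0.29, SE 0.232, adjusted p = 0.397), and it was called lower with equal library totals (-0.63, adjusted p = 0.0451). EGOT had 53.9 and 46.0 against 60.4 and 64.4 (-0.32, adjusted p = 0.407). MIAT had 47.1 and 42.0 against 44.7 and 42.2 in a common region and 31.1 and 45.2 against 56.8 and 58.6 in a shNC-specific one (0.03 and -0.61, adjusted p = 0.948 and 0.144). The second was called lower with equal library totals (-0.95, adjusted p = 0.0203). SLC16A1-AS1 had 60.6 and 50.8 against 56.8 and 68.0 (-0.16, adjusted p = 0.698). At an unadjusted p under 0.05, 0 of the 5 were called, and 0 by voom.

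The shNC-specific members with the largest differences were higher in the deeper pair, labelled shNC in that set. The largest of all 680 was the last exon of a noncoding transcript with no RefSeq match, 14884 bp from the start of ZBTB7B on chromosome 1, which encodes a transcription factor of T cell development. It had 257.5 and 262.3 normalized counts in the deeper and 95.4 and 28.1 in the shallower pair (log2 difference 2.30, SE 0.340, limma adjusted p = 0.000186). GOLGA2P6, a golgin pseudogene on chromosome 10, had 150.6 and 148.5 against 84.6 and 25.8 (1.65, SE 0.348, limma adjusted p = 0.00278). In both, the shallower A and B lay over 3-fold apart while the deeper libraries nearly coincided. ATP9B, a phospholipid flippase gene, had 71.5 and 86.3 against 27.8 and 22.3, 162 bp from its start (1.62, SE 0.298, limma adjusted p = 0.00108). FAM169A had 48.8 and 42.0 against 24.2 and 10.5 (1.44, SE 0.400, limma adjusted p = 0.0146). Its call was lost without deeper A (adjusted p = 0.185) or deeper B (0.0911) and without shallower B (0.0668).

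A further shNC-specific member, chosen after its values were seen, is LITATS1, a long noncoding RNA named as an inhibitor of TGF-beta signalling. Its last exon had 111.9 and 90.4 normalized counts in the deeper and 56.8 and 29.3 in the shallower pair (log2 difference 1.28, SE 0.293, limma adjusted p = 0.00473). The adjusted p was 0.0623 without deeper A. The pairs did not overlap, as at all 151 called members.

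All 23 shG8d-specific members had estimates below 0, from -1.88 to -0.16, so each was lower in the deeper pair, labelled shNC in that set. Of all 2755 regions of that set 70.0% were called lower, and the upper quartile of their estimates was -0.91. The direction is therefore not particular to the members. The pseudogene LOC389906 on the X chromosome had 11.8 and 10.5 normalized counts in the deeper and 33.8 and 56.2 in the shallower pair (log2 difference -1.88, SE 0.402, limma adjusted p = 0.00306). MBNL1-AS1, antisense to the splicing regulator gene MBNL1, had 44.6 and 34.7 against 97.9 and 124.2, 274 bp from the MBNL1 start (-1.46, SE 0.257, limma adjusted p = 0.000769). A second region of MBNL1-AS1, shNC-specific and 1637 bp upstream of that start, had 79.9 and 72.6 against 37.5 and 70.3 (0.56, adjusted p = 0.166), and it was called higher without shallower B (1.01, adjusted p = 0.00541).

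NIPBL-DT runs divergently from the cohesin loader gene NIPBL. It had 21.0 and 29.1 normalized counts against 54.4 and 89.0 (log2 difference -1.46, SE 0.327, limma adjusted p = 0.00416). DSCAS is an antisense RNA of the desmocollin cluster, whose proteins hold epithelial cells together at desmosomes. Its last exon, 314 bp from the DSC1 start, had 10.1 and 12.9 against 37.5 and 28.1 (-1.43, SE 0.413, limma adjusted p = 0.0179), and the call was lost without deeper A (0.176) or deeper B (0.0870). JMJD1C, a member of the JmjC family named after its values were seen, had 24.4 and 21.0 against 47.1 and 70.3 (-1.31, SE 0.331, limma adjusted p = 0.00860), and 0.0520 was its adjusted p without deeper B. PSPC1, a paraspeckle protein gene whose upstream sequence is printed above, had 22.7 and 22.6 against 51.9 and 43.4 (-1.03, SE 0.332, limma adjusted p = 0.0301). That call was lost without deeper A (0.143) or B (0.130) and without shallower A (0.0712). LINC01278, printed above as well, had 8.42 and 26.6 against 43.5 and 38.7 (-1.38, SE 0.444, limma adjusted p = 0.0304) and -0.60 without deeper A (adjusted p = 0.454).

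Several RNAs held more than 1 region, 38 in all, with 81 regions. Of all 680 members 22.2% were called, against 23.6% of all regions, and whether calls gather in such RNAs was not tested. Called regions occurred in 14 of the 38 RNAs, and 3 had at least 2 calls. SLC7A5P2, a pseudogene of the amino acid transporter gene SLC7A5 on chromosome 16, was the only one with calls in both directions, at 4 regions of its single exon. At 113 bp from the start it had 194.4 and 216.3 normalized counts in the deeper and 131.7 and 90.2 in the shallower pair (shNC-specific, log2 difference 0.91, SE 0.206, limma adjusted p = 0.00450). At 1238 bp it had 95.1 and 105.7 against 180.0 and 159.3 (common, -0.75, SE 0.196, limma adjusted p = 0.0102).

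Farther along the same exon, at 1924 bp, SLC7A5P2 had 122.9 and 97.6 against 151.0 and 182.8 (shNC-specific, -0.60, SE 0.202, limma adjusted p = 0.0385). At 2427 bp it had 53.0 and 70.2 against 120.8 and 120.7 (shG8d-specific, -0.97, SE 0.229, limma adjusted p = 0.00569). The deeper pair was thus higher next to the start and lower at the 3 regions beyond 1000 bp. By column label these 3 would read as lower in shG8d in the common region and higher in shG8d in the specific ones. The region at 1924 bp is the 1 shNC-specific member called lower. Its call was lost without deeper A (-0.76, adjusted p = 0.0925) or B (-0.43, adjusted p = 0.356), without shallower B (-0.46, adjusted p = 0.0972) and in the fit of that set alone (adjusted p = 0.200). The call at 113 bp was lost without deeper B (0.0622) and in the fit of that set alone (0.0595), the call at 1238 bp without deeper A (0.138) or B (0.0546), and the call at 2427 bp without deeper A (0.112). Near-identical copies of this sequence make the place of its reads uncertain.

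**Figure D5:**
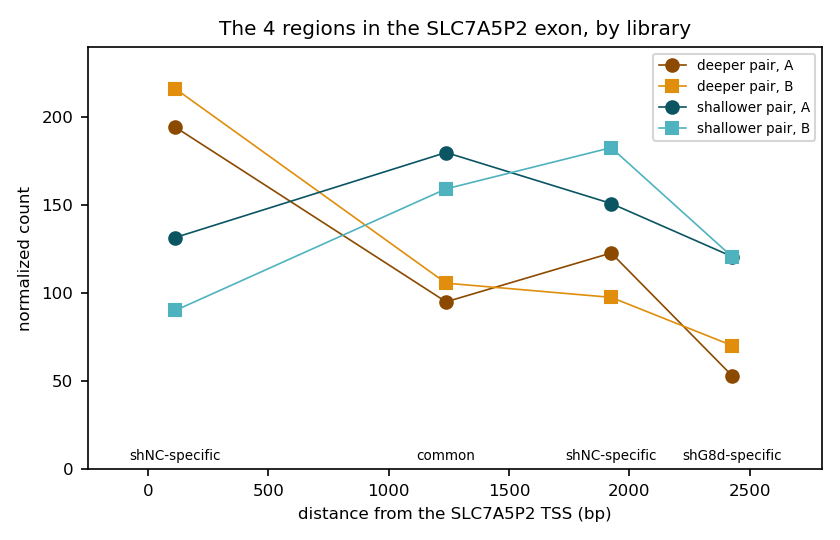
Normalized count (y axis) in each library at the 4 regions of the SLC7A5P2 exon, by distance from its start site in bp (x axis), with the region set below each. The deeper pair lies above the shallower pair at 113 bp and below it at 1238, 1924 and 2427 bp.

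GASAL1, a long noncoding RNA named for growth arrest, was called in both of its common regions, on chromosome 8. Exon 2 had 275.2 and 262.3 normalized counts in the deeper and 145.0 and 117.2 in the shallower pair (log2 difference 1.04, SE 0.182, limma adjusted p = 0.000769). Exon 1, among the 5 highest members by level, had 483.9 and 534.2 against 378.1 and 255.4 (0.71, SE 0.182, limma adjusted p = 0.00930). The exon 1 call was lost without deeper A (0.78, adjusted p = 0.0568) or B (0.64, adjusted p = 0.116) and with equal library totals (0.36, adjusted p = 0.137).

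The highest member of all was LINC00537 on chromosome 9, with 430.9 and 413.2 normalized counts in the deeper and 646.3 and 572.9 in the shallower pair (log2 difference -0.53, SE 0.156, limma adjusted p = 0.0202). Its call was lost without deeper A (adjusted p = 0.177) or B (0.220). CCAT2, a long noncoding RNA first described in colon cancer, had 381.2 and 337.3 against 345.5 and 399.5 (-0.05, adjusted p = 0.851). WWOX, an oxidoreductase gene across a common fragile site, had 276.0 and 322.8 against 282.7 and 390.2 (-0.15, adjusted p = 0.571). It was called lower with equal library totals (-0.51, adjusted p = 0.0461) and without shallower A (-0.39, adjusted p = 0.0412). The pairs overlapped at CCAT2 and WWOX. KDM4C, which encodes a demethylase of histone H3 lysine 9, had 229.7 and 297.8 against 356.4 and 379.6 (-0.49, SE 0.172, limma adjusted p = 0.0443). Its call was lost without deeper A (-0.30, adjusted p = 0.521) or deeper B (-0.68, adjusted p = 0.0844) and with trimmed-mean scaling (-0.47, adjusted p = 0.0531).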

How the data were processed

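CASAVA 1.4 and the build hg19 are named in the submitters' processing notes. For the aligner, peak caller, scaling and test, nothing is given in the sources used here. Per the file headers, the authors deposited, for each region, log10 normalized values, a log2 fold change, a p-value and a distance to a start site (TSS), with an annotation and symbols. Distances, not start and end positions, place the regions here. Raising 10 to each value and dividing by the value of 1 read gave whole reads for 100% of values, within 0.05 reads. A count of 3 reads, the limit a count of 0 allows, is 2.42 to 3.62 normalized counts (counting error only).

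Values were tested as log2(normalized count + 1) in limma 3.58.1 (R 4.3.3), with its variance prior following the mean, over all 58127 regions, 4 libraries, no covariates, and Benjamini-Hochberg adjustment. The pseudocount of 1 understates changes of low regions. A minimum of 10 normalized counts in 2 libraries removed 0 regions. On simulated data of the same 58127 regions, 38% of 100 true 2-fold and 97% of 100 true 4-fold differences were found, and 5.59% of 143 calls were false. The simulation changed no other regions and used a single dispersion set by hand, not estimated from the libraries. In the real data 23.6% of regions were called, so these rates need not hold there. Alternatives were another pseudocount (5), equal totals, trimmed-mean scaling, a filter at 30, no filter, a replicate block, leaving out each library, separate fits per set, a threshold of 0.01 and voom on recovered reads. The last was chosen after seeing the data. It stands in for a count test, which was not run because the deposited unit is a log value.

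Named regions were, by rule, the 6 (common) or 4 (specific sets) largest called differences in each direction, the 5 highest by level, hosts of small RNAs that were called or among the 5 highest of their list, and well-studied RNAs that were called or fixed by name. Others, including the uncalled well-studied RNAs, are named after their values were seen. A common region that the rule selects is not reported here. Members and lists were chosen with earlier results of these data known. Annotated transcripts were matched by identifier, and 13 had no match.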

Additional observations from a re-analysis of the deposited data

How the results depend on the processing

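Of the 34 regions named by the rule, 26 were called, and 18 of those stayed called under all 12 alternatives. No estimate of a named region changed sign where it was called. Calls of named regions were lost without deeper A (8) or deeper B (7), without shallower B (2), with equal library totals (2), with trimmed-mean scaling (1) and in separate fits per set (1). With equal library totals 14 common regions were higher and 175 lower, and 11 shNC-specific regions were higher and 12 lower. The medians were then -0.44 (common), 0.025 (shNC-specific) and -1.41 (shG8d-specific), and that of all regions moved by -0.35. At a threshold of 0.01 the counts were 23 and 25, 8 and 0, and 6 lower among shG8d-specific regions. Fitted alone, the shNC-specific set had 11 higher and 0 lower. With a library left out, common counts ran from 12 to 85 higher and 15 to 79 lower, shNC-specific counts from 8 to 50 higher and 0 to 3 lower, and shG8d-specific counts from 6 to 17 lower. Medians then ran from -0.17 to -0.055 (common), 0.26 to 0.40 (shNC-specific) and -1.17 to -1.11 (shG8d-specific). In these fits the spread comes from the complete pair, and the lone library is assumed to vary like it. With all 4 libraries no member of the shG8d-specific set was called higher in any of these settings. In the main fit 1 of all 2755 regions of that set was called higher.

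With the letter A or B as a replicate block, 53 common regions were higher and 63 lower, 43 shNC-specific regions were higher and 1 lower, and 19 shG8d-specific regions were lower. Differences between A and B were not shared by the pairs (correlation across the 680 members -0.04), and the labels do not say that a letter marks a shared culture. The quasi-likelihood count model planned for recovered reads was not run, because the deposited unit is a log value. Voom, chosen after seeing the data, gave 50 higher and 66 lower common regions, 37 and 1 shNC-specific, and 19 lower shG8d-specific ones. Between A and B the median SD of log2 values was 0.14 (deeper) and 0.16 (shallower) among common members, 0.17 and 0.33 among shNC-specific members, and 0.32 and 0.25 among shG8d-specific members. The part of depth in these spreads was not tested.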

Other observations

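In the common set, 2 regions lay in the noncoding transcript of DCP2, the gene of the mRNA decapping enzyme. Its first exon had 127.9 and 126.7 normalized counts in the deeper and 120.8 and 99.6 in the shallower pair (log2 difference 0.21, limma adjusted p = 0.475). Its last exon, with its region 44042 bp from the start, had 37.0 and 46.0 against 73.7 and 103.1 (-1.06, SE 0.270, limma adjusted p = 0.00898), a call lost without deeper A (-0.91, adjusted p = 0.0930). TWIST1, a driver of epithelial-mesenchymal transition, had 2 regions in its noncoding transcript, neither called. They had 40.4 and 24.2 against 51.9 and 49.2 (shG8d-specific, -0.67, adjusted p = 0.139) and 30.3 and 42.8 against 38.7 and 36.3 normalized counts (shNC-specific, -0.06, adjusted p = 0.921). The first was called lower with equal library totals (-1.02, adjusted p = 0.0202).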
